A study of Mus musculus with 23 samples.

Results

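The 7 genes described here, Sox2, Nes, Neurod1, Sox4, Sox11, Dcx and Dpysl3, mark successive steps of neuron formation from stem cells. They were chosen by name, and all 7 were found among the 13766 gene records of the table. Hippocampal RNA was sequenced from 23 mice, each a separate FCG animal on a C57Bl/6J background, collected at about 12 months of age. FCG mice, a model of core sex genotypes, carry the testis-determining gene Sry on an autosome in place of the Y chromosome, which lets chromosomes and gonads be inherited apart. The groups were XX mice with ovaries (XXF, n = 5), XX mice with testes (XXM, n = 6), XY mice with ovaries (XYF, n = 6) and XY mice with testes (XYM, n = 6). All were of 1 age, and no younger animals stand beside them. They were caged by the look of their genitalia, so cage type and gonad cannot be told apart.

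In the adult rodent hippocampus, new granule neurons arise from radial glia-like stem cells at the inner edge of the dentate gyrus. These cells divide into intermediate progenitors, which become neuroblasts and then immature neurons that join the granule cell layer. The output of this niche falls steeply with age. None of the 7 genes is private to it: Sox2 is also found in astrocytes and oligodendrocyte precursors, Nes in blood vessel cells, and Neurod1 in mature granule neurons. In bulk tissue, fewer cells of a type and less RNA per cell cannot be told apart.

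Sox2, Sox4 and Sox11 are related transcription factors that bind DNA through a shared HMG box, and reads from so similar a stretch can be split between genes in counting. The pair Sox4 and Sox11 belongs to the SoxC group, and Sox2 to the SoxB group. The 90-base coding windows in which Sox4 and Sox11 were most alike are shown with the best-matching window of Sox2. How far reads from them were split between the genes was not tested. Capitals mark bases identical in all 3 genes.
Sox2: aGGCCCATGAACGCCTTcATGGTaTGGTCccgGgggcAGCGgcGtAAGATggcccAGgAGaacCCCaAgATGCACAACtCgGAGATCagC
Sox4: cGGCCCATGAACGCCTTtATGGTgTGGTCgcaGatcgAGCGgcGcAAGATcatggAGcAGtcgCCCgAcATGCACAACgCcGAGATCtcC
Sox11: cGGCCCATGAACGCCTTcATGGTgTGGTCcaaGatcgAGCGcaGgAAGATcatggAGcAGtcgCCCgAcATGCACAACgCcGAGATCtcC
These windows lie in GRCm38 at chr3:34650548-34650637 on the plus strand for Sox2, at chr13:28952752-28952841 on the minus strand for Sox4 and at chr12:27342169-27342258 on the minus strand for Sox11. Sox4 and Sox11 were identical at 84 of the 90 bases (93.3%), Sox2 and Sox4 at 72.2%, and Sox2 and Sox11 at 71.1%. The longest identical run within the windows was 45 bases for Sox4 and Sox11, 16 for Sox2 and Sox4, and 22 for Sox2 and Sox11. Over whole transcripts of the GENCODE annotation, the longest stretch that Sox4 or Sox11 shared with any other gene on the same strand was 48 bases. The longest such stretch of Sox2 was 44 bases, shared with other genes of which Sox1 held the most. On the same strand, 0.55% of the 31-base words of Sox4, 0.45% of those of Sox11 and 0.89% of those of Sox2 also occurred in another gene.

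The genes lie on 6 chromosomes, with coordinates as the table gives them. Dcx (gene 13193) spans 143855842 to 143933219 on the X chromosome, and Sox2 (gene 20674) spans 34650005 to 34652460 and Nes (gene 18008) 87971093 to 87980451 on chromosome 3. Neurod1 (gene 18012) spans 79452641 to 79456636 on chromosome 2, Sox11 (gene 20666) 27334268 to 27342718 on chromosome 12, Sox4 (gene 20677) 28950730 to 28953682 on chromosome 13 and Dpysl3 (gene 22240) 43324227 to 43393331 on chromosome 18. The libraries kept strand, but the sources used here do not say whether the counting used it. This bears most on Sox4, where 54.6% of the exon bases lie under an exon of Gm26735 on the opposite strand. Of the Neurod1 exon bases, 7.4% also belong to Cerkl on the same strand and 5.6% to Gm26755 on the opposite strand. Gm26735 and Gm26755 were not analysed here. Reads from the same-strand pair cannot be told apart in the shared part. Those from the opposite-strand pairs are mixed there only if the counting ignored strand. Since this is not known, the level of Sox4 is uncertain to that extent.

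Totals over the listed genes ran from 10257751 to 36078221 counts per library, and the 7 genes were well sampled: the lowest count of any was 82, for Sox4, and the highest 1203, for Sox2. The tissue label was checked against its markers. All 12 dentate granule genes and all 13 genes of the CA fields listed as markers were in the table, and Prox1, a transcription factor of granule neurons, stood between 46.5 and 84.6 CPM (the count scaled to a common normalized library total) in every library. Libraries differed in tissue at the edges of the hippocampus. The summed level of 10 choroid plexus genes was between 293 and 577 CPM in 16 libraries and between 3334 and 5894 CPM in the other 7, which were 1 of 5 XXF, 4 of 6 XXM, 1 of 6 XYF and 1 of 6 XYM. No gene of that list was at 0 in any library, and its leading gene Ttr ranged from 19.2 to 2927 CPM. XYF replicate 4 stood apart from all others. All 7 photoreceptor genes in the table, of 21 listed after the values were seen, were highest there. Their sum was 473 CPM, against 14.5 to 50.5 CPM in the other 22. Of those 22, the 7 libraries with high choroid plexus levels held 32.0 to 50.5 CPM, and the rest at most 23.9 CPM. Among the 22, 1 gene of the sum, Abca4, reached 36.9 CPM, and no other gene of it exceeded 6.58 CPM. The higher sums therefore do not show that photoreceptor genes as a set rose with choroid plexus. XYF replicate 4 also held Xist, the RNA of the inactive X, at 94.1 CPM, where the other 11 XY libraries held at most 2.87 CPM. The XX libraries were not part of this comparison, and whether the XY label of this library is right was not tested. The library was kept as XYF in the main fits, and each contrast was repeated without it. Levels, spread and differences of Neurod1 are given with and without it.

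The levels of the 7 genes per kilobase of annotated exon followed a clear order at the top and a loose one at the bottom. Sox2 stood highest at 16.2 ± 1.61 CPM per kilobase (SD, n = 23), and Neurod1 followed at 6.95 ± 1.15 CPM per kilobase (SD, n = 23), or 6.76 ± 0.720 (SD, n = 22) without XYF replicate 4. Dpysl3 was at 3.50 ± 0.256, Nes at 2.46 ± 0.441, Dcx at 1.87 ± 0.297, Sox4 at 1.80 ± 0.245 and Sox11 at 1.49 ± 0.248 CPM per kilobase (SD, n = 23 each). The ranges of Sox2 and Neurod1, and of Neurod1 and Dpysl3, did not overlap. Dpysl3 lay above Nes in 23 of 23 libraries and Nes above Dcx in 22. Dcx and Sox4 held no fixed order, with Dcx the higher in 12 of 23, and Sox4 lay above Sox11 in 18. Lengths count all exons of all annotated transcripts, which understates a gene that uses few of them. Dcx had 12647 such bases, against 9074 in its longest coding transcript, and Nes 6416 against 6126. The place of Dcx in the order, also relative to Nes, thus depends on the length used.

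**Figure D1:**
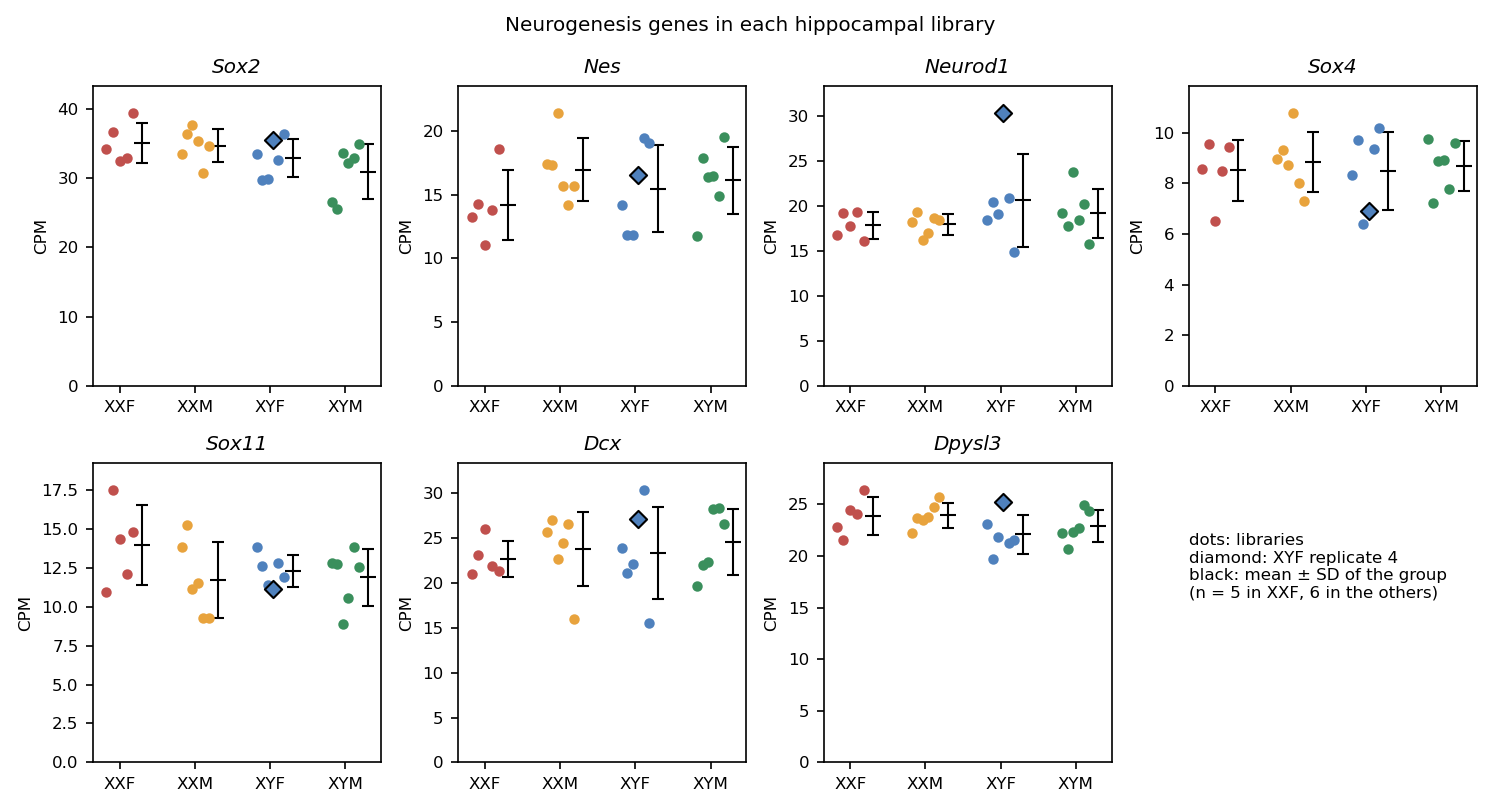
CPM of each of the 7 genes (y axis) in the 4 groups (x axis), with 1 dot per library, a diamond for XYF replicate 4, and the mean with SD of each group in black (n = 5 in XXF, n = 6 in the others). The 4 groups overlap in every panel, and the diamond stands at 30.3 CPM in the Neurod1 panel, above the other 22 libraries.

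None of the 7 genes passed the test in any of the 9 contrasts examined. The sex chromosome effect averages XY minus XX over both gonads, and here edgeR's quasi-likelihood test called 0 of 7 genes, against 0.283% of all 13766 genes. A call means a p under 0.05 once adjusted by Benjamini-Hochberg across the whole table. An unadjusted p under 0.05 was reached by 1 of the 7, Sox2, and by 6.78% of all genes. For the gonad effect, which sets mice with testes against those with ovaries across both chromosome types, edgeR called 0 of 7 against 0.16% of all genes, and 0 of 7 had an unadjusted p under 0.05 against 13.6%. For the interaction, which asks whether the gonad effect differs between XY and XX mice, edgeR called 0 of 7 and 0% of all genes, with 0 of 7 and 3.23% at an unadjusted p under 0.05. DESeq2, limma voom and limma voom with sample quality weights also called 0 of 7 in each of these. The shares called were low throughout, so a count of 0 among 7 genes is near the background.

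A p that misses the threshold does not show equal levels, and the intervals give the differences that these data allow. For the sex chromosome effect the fitted log2 fold changes of the 7 genes ran from -0.13 to 0.15, and their 95% intervals lay between -0.27 and 0.32. The upper end, Neurod1, was 0.08 without XYF replicate 4, and Dcx and Sox4, at 0.04 and -0.01, were then at 0.02 and 0.02. For the gonad effect they ran from -0.14 to 0.16, with intervals between -0.34 and 0.37, and without that library Sox4 went from 0.05 to 0.02 and Dpysl3 from 0.03 to 0.05. For the interaction, a difference of differences and so less precise, they ran from -0.21 to 0.19, with intervals between -0.63 and 0.57. The interaction of Neurod1 was -0.10 with XYF replicate 4 and 0.03 without it. The median over the 7 genes was -0.01 for the sex chromosome effect, where the median of all genes was 0.00 (0.02 for the 7 genes without XYF replicate 4), and 0.03 for the gonad effect, where that of all genes was 0.00.

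**Figure D2:**
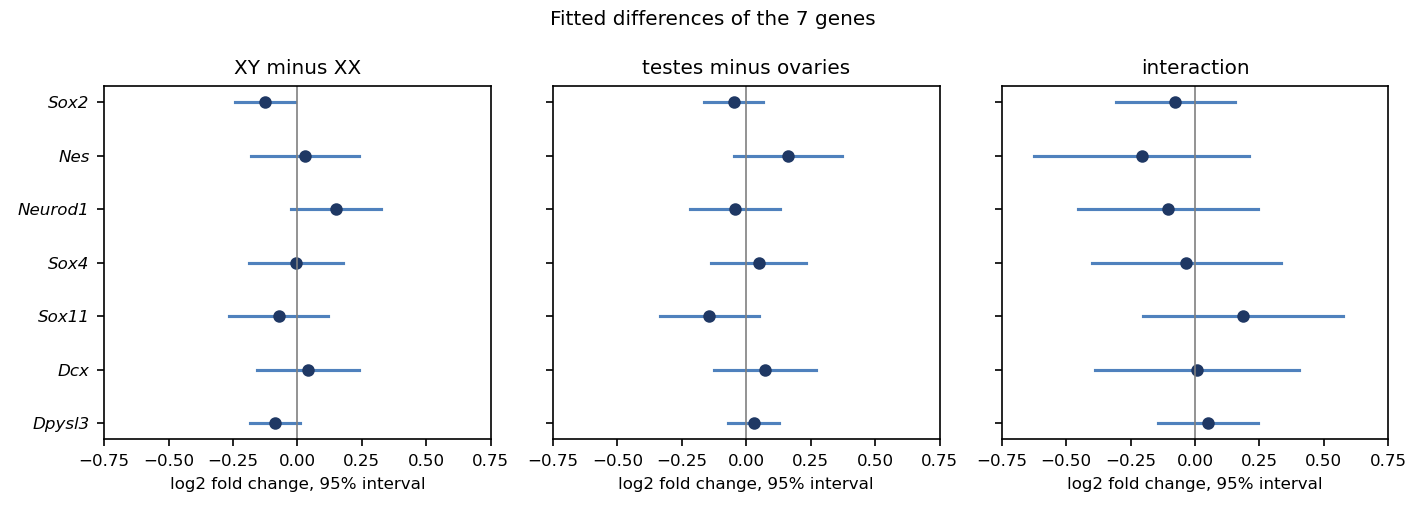
Fitted log2 fold change (dot) and its 95% interval (line) for each of the 7 genes, for XY minus XX, testes minus ovaries and their interaction, from edgeR over 23 libraries. All intervals cross 0 except that of Sox2 for XY minus XX, which ran from -0.24 to -0.01 before any correction for the number of genes.

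Sox2, a factor that maintains neural stem cells, came nearest to a difference. Its levels in XXF were 34.2, 36.6, 32.4, 32.9 and 39.4 CPM in replicates 1 to 5. In XXM they had a lowest value of 30.7, a median of 35.0 and a highest of 37.7 CPM. In XYF these were 29.7, 33.03 and 36.4 CPM, and in XYM 25.5, 32.6 and 34.9 CPM. The 2 lowest of all 23 libraries were XYM replicates 1 and 2, at 26.6 and 25.5 CPM, and the other 4 XYM libraries lay within the range of the other groups. Group means were 35.1 ± 2.88 CPM in XXF (SD, n = 5), 34.7 ± 2.41 in XXM, 32.9 ± 2.77 in XYF and 30.9 ± 3.94 in XYM (SD, n = 6 each). The XY minus XX difference was -0.13 ± 0.06 (log2, standard error), or 0.916 times, with an adjusted p of 0.684 by edgeR, and it failed the correction. The unadjusted p was 0.0346, and it ran from 0.0168 to 0.0813 over the 33 alternatives, while the log2 difference kept its sign in all of them. Without XYM replicate 2 the difference was -0.10. Oligodendrocyte precursor genes, a cell type that also holds Sox2, had an r of 0.626 with it over the 23 libraries. That r failed adjustment (tested among the correlations). Genes of astrocytes, which also hold Sox2, had an r of 0.079 with it (permutation p = 0.721, adjusted p = 0.978). The part of either cell type in the difference was not tested. The gonad difference of Sox2 was -0.05, with an interval from -0.17 to 0.07.

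Nes encodes nestin, an intermediate filament of neural stem cells. It read 13.2, 14.3, 11.02, 13.8 and 18.6 CPM in XXF replicates 1 to 5. The lowest, median and highest values were 14.2, 16.5 and 21.4 CPM in XXM, 11.8, 15.3 and 19.5 CPM in XYF, and 11.8, 16.4 and 19.5 CPM in XYM. All groups overlapped: 3 of the 5 XXF libraries lay below the lowest XXM value, and XXF replicate 5 lay above the XXM median. The gonad difference of 0.16 ± 0.10 (log2, standard error) was the largest of the 7 genes for that effect, with an interval from -0.05 to 0.37 and an edgeR adjusted p of 0.485. It was 0.27 in XX mice (interval -0.04 to 0.57) and 0.06 in XY mice (interval -0.23 to 0.35), and the test of that difference, the interaction, gave -0.21 with an adjusted p of 0.999 by edgeR. The sex chromosome difference was 0.03, with an interval from -0.18 to 0.24.

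Neurod1 is a basic helix-loop-helix factor that drives neuroblasts to become granule neurons, and it held the largest XY minus XX difference of the 7 genes. It read 16.8, 19.3, 17.8, 19.3 and 16.1 CPM in XXF replicates 1 to 5, and had a lowest value of 16.2, a median of 18.3 and a highest of 19.3 CPM in XXM. In XYM these were 15.7, 18.8 and 23.8 CPM. In XYF they were 14.9, 19.8 and 30.3 CPM. The highest value came from XYF replicate 4, and the next XYF library stood at 20.8 CPM. The XY minus XX difference was 0.15 ± 0.08 (log2, standard error), with an interval from -0.03 to 0.32 and an adjusted p of 0.822 by edgeR. Without XYF replicate 4 it was 0.08, and the mean of XYF moved from 20.7 ± 5.17 CPM (SD, n = 6) to 18.7 ± 2.35 CPM (SD, n = 5). The gonad difference was -0.04 with that library and 0.02 without it.

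The library with the highest Neurod1 level was also that with the photoreceptor genes, and photoreceptors are a cell type that expresses Neurod1. In XYF replicate 4 the rod protein gene Sag read 186 CPM, against 1.02 to 5.37 CPM in the other 22 libraries. Rom1, a protein of rod and cone discs, read 97.3 CPM against at most 6.58, and Nrl, the factor that sets rod fate, 79.1 CPM against at most 2.44. Gucy2f read 22.1 CPM against at most 3.54, and Impg2 21.9 CPM against at most 3.13. Abca4, at 61.2 CPM, reached 36.9 CPM in another library, and Gngt2, at 5.39 CPM, reached 2.88 CPM. The part of these cells in the Neurod1 level was not tested. Cerkl, which shares exon bases with Neurod1, read 2.53 CPM in XYF replicate 4, within its range of 2.16 to 4.91 CPM.

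**Figure D3:**
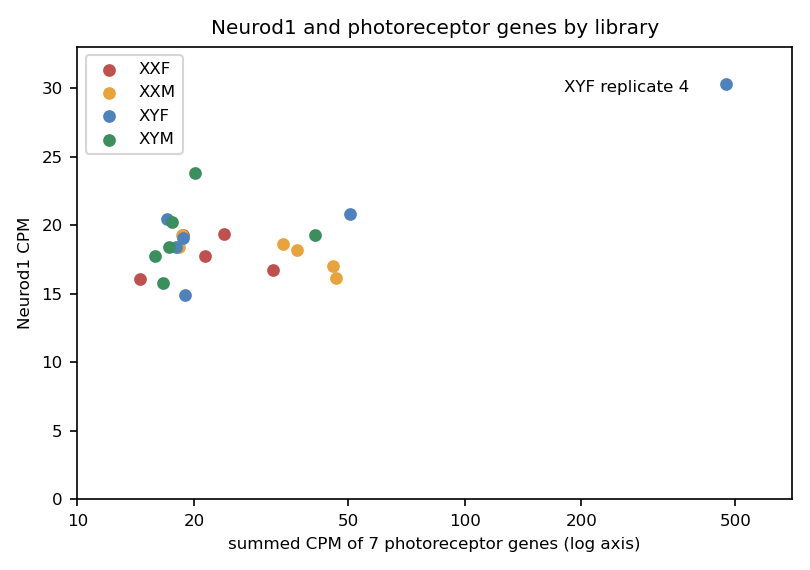
Neurod1 CPM (y axis) against the summed CPM of 7 photoreceptor genes (x axis, log scale) in each of 23 libraries, coloured by group. XYF replicate 4 lies at 473 and 30.3 CPM. The other 22 libraries lie between 14.5 and 50.5 CPM on the x axis and between 14.9 and 23.8 CPM on the y axis. Those with high choroid plexus levels lie between 32.0 and 50.5 CPM on the x axis. Among the 22, Abca4 reached 36.9 CPM and no other gene of the sum exceeded 6.58 CPM.

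Sox4 and Sox11 are switched on as progenitors leave the cell cycle and are needed for the neuronal program that follows. Sox11 is largely restricted to immature neurons in the adult dentate gyrus, and it read 10.9, 17.5, 14.4, 12.1 and 14.8 CPM in XXF replicates 1 to 5. In XXM its lowest, median and highest values were 9.24, 11.3 and 15.2 CPM, in XYF 11.1, 12.3 and 13.9 CPM, and in XYM 8.87, 12.6 and 13.8 CPM. XXF held the highest library and the highest mean, 13.9 ± 2.55 CPM (SD, n = 5), and overlapped all other groups. The gonad difference of Sox11 was -0.14 ± 0.09 (log2, standard error), with an interval from -0.34 to 0.05 and an edgeR adjusted p of 0.508. It was -0.24 within XX mice (interval -0.51 to 0.04) and -0.05 within XY mice (interval -0.32 to 0.22), and the interaction of 0.19 had an adjusted p of 0.999 by edgeR. The sex chromosome difference was -0.07, with an interval from -0.27 to 0.12.

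Sox4 was the lowest of the 7 genes in CPM and its group means were the closest. It read 8.58, 9.54, 6.53, 8.46 and 9.42 CPM in XXF replicates 1 to 5. Group means were 8.50 ± 1.21 CPM in XXF (SD, n = 5), 8.84 ± 1.19 in XXM, 8.48 ± 1.55 in XYF and 8.69 ± 0.996 in XYM (SD, n = 6 each). Its range over all libraries was 6.41 to 10.8 CPM, with the lowest value in XYF replicate 3 and the highest in XXM replicate 4. The sex chromosome difference was -0.01, with an interval from -0.19 to 0.18, and the gonad difference 0.05, with an interval from -0.14 to 0.23.

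Dcx encodes doublecortin, a microtubule-binding protein of migrating neuroblasts and immature neurons that is the usual marker of adult neurogenesis. It read 21.1, 23.1, 26.1, 21.9 and 21.3 CPM in XXF replicates 1 to 5. The lowest, median and highest values were 16.03, 25.1 and 27.1 CPM in XXM, 15.6, 23 and 30.4 CPM in XYF, and 19.7, 24.5 and 28.4 CPM in XYM. The 2 lowest libraries, XYF replicate 6 and XXM replicate 6, belonged to different sex chromosomes and different gonads. Dcx lies on the X chromosome, and its XY minus XX difference was 0.04 ± 0.10 (log2, standard error), or 1.03 times, with an interval from 0.897 to 1.18 times and an edgeR adjusted p of 0.976. The gonad difference was 0.07, with an interval from -0.12 to 0.27.

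Dpysl3 encodes CRMP-4, a cytosolic protein of growing axons that is high in immature neurons. It was the steadiest of the 7 genes, at 22.8, 21.5, 24.4, 24.02 and 26.4 CPM in XXF replicates 1 to 5 and between 19.7 and 26.4 CPM over all libraries. Group means were 23.8 ± 1.82 CPM in XXF (SD, n = 5), 23.9 ± 1.21 in XXM, 22.1 ± 1.86 in XYF and 22.9 ± 1.55 in XYM (SD, n = 6 each). The XY minus XX difference was -0.09 ± 0.05 (log2, standard error), with an interval from -0.19 to 0.01 and an adjusted p of 0.806 by edgeR. The gonad difference was 0.03, with an interval from -0.07 to 0.13.

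The pairwise comparisons gave the same picture. edgeR called 0 of 7 genes in XYF against XXF (0.291% of all genes called), in XYM against XXM (0.116%), in XXM against XXF (0%), in XYM against XYF (0.225%), in XYM against XXF (0.131%) and in XXM against XYF (0.501%). An unadjusted p under 0.05 was reached by 0 of 7 in XYF against XXF (5.17% of all genes), XXM against XXF (7.71%), XYM against XYF (8.63%) and XXM against XYF (10%), and by 1 of 7 in XYM against XXF (10.1%) and XYM against XXM (5.29%). That gene was Sox2, in XYM against XXF, with a log2 difference of -0.18 and an unadjusted p of 0.042, and in XYM against XXM, with -0.16 and an unadjusted p of 0.0434. The adjusted p values by edgeR were 0.465 and 0.93. Both comparisons share the XYM libraries. The CPM of 0 of 7 genes separated without overlap between XX and XY (0.102% of all genes did), between ovaries and testes (0.00726%), or in any pair. The shares of all genes were 0.821% for XYF against XXF, 0.37% for XYM against XXM, 0.763% for XXM against XXF, 0.341% for XYM against XYF, 1.53% for XYM against XXF and 0.734% for XXM against XYF.

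The other genes of the neurogenic path were examined by lists of its stages. Like the 7 genes, list genes are not private to the niche, so a list median does not measure its stage alone. Of 20 stem cell genes, all in the table with Sox2 and Nes among them, edgeR called 0 in each of the 9 contrasts, with 3 at an unadjusted p under 0.05 for the sex chromosome effect, where 6.78% of all genes were, and 5 for the gonad effect, where 13.6% were. Their median log2 fold changes were 0.00 and -0.04. Of 28 immature neuron genes in the table (30 listed), which include Dcx, Sox11, Sox4, Neurod1 and Dpysl3, 0 were called in any contrast, 2 had an unadjusted p under 0.05 for each effect, and the medians were -0.01 and -0.01. Of 10 genes of cycling cells and intermediate progenitors (16 listed), 0 were called, and the medians were 0.07 and -0.01. The intermediate progenitor genes Eomes, Neurog2 and Tfap2c of that list were not analysed here, so it speaks mainly to cell cycle genes. Of 25 genes of niche signals (28 listed), 0 were called, with 5 and 3 at an unadjusted p under 0.05 and medians of -0.04 and 0.02. The medians of all genes were 0.00 for both effects.

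Among the stem cell genes with the smallest p, all of which failed the correction, Fabp7, a fatty acid binding protein of radial glia and astrocytes, had a gonad difference of 0.44 with an edgeR adjusted p of 0.169. Levels were 19.98 ± 4.42 CPM in XXF (SD, n = 5), 20.1 ± 5.70 in XYF, 27.2 ± 4.95 in XXM and 27.03 ± 6.89 in XYM (SD, n = 6 each), and the groups overlapped. With sample quality weights in limma voom Fabp7 passed, with an adjusted p of 0.0294. Sox21, another SoxB factor, had a gonad difference of -0.28 with an edgeR adjusted p of 0.242. For the sex chromosome effect Thrsp, a gene of lipid synthesis in stem cells, was at 0.19 and Hes5, a target of Notch signals, at -0.24, with adjusted p of 0.525 and 0.679 by edgeR.

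Of the niche signals, Nog, which encodes the BMP antagonist noggin, had a gonad difference of -0.47 with an edgeR adjusted p of 0.161. Levels were 3.99 ± 1.18 CPM in XXF (SD, n = 5), 3.82 ± 0.869 in XYF, 3.04 ± 0.414 in XXM and 2.56 ± 0.669 in XYM (SD, n = 6 each). Ntrk2, the receptor of BDNF, was at 0.11 for the gonad effect, and Wnt7a and Wnt3, ligands of the Wnt path, at -0.17 and 0.32 for the sex chromosome effect, with edgeR adjusted p of 0.311, 0.609 and 0.632. Of the immature neuron list, the tubulin-binding Stmn1 was at -0.19 and the neuronal tubulin Tubb3 at -0.13 for the gonad effect, and Calb2, the calretinin gene of young granule and other neurons, at 0.25 for the sex chromosome effect. Their adjusted p values by edgeR were 0.254, 0.271 and 0.694. In the cycling list, the replication helicase gene Mcm6 was at 0.13 and Mcm5 at -0.17 for the gonad effect, and the cyclin gene Ccnd1 at -0.11 for the sex chromosome effect, with edgeR adjusted p of 0.45, 0.482 and 0.715. Mki67, a protein of dividing cells named here after its values were seen, was detected in every library at 2.79 to 6.08 CPM, from counts of 35 to 163.

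Of the markers of mature dentate granule neurons, 1 gene passed the test for the sex chromosome effect and 0 for the gonad effect. The summed level of 12 dentate granule genes ran from 741 to 885 CPM in XXF, 859 to 1017 in XXM, 774 to 997 in XYF (844 to 997 without replicate 4) and 850 to 1091 in XYM. For the gonad effect their median log2 fold change was 0.16, with 11 of 12 fitted values above 0, 7 at an unadjusted p under 0.05 (13.6% of all genes) and 0 called (0.16% of all genes), and Prox1 was at 0.23 with an edgeR adjusted p of 0.22. For the sex chromosome effect the median was 0.10 and 1 gene was called (0.283% of all genes), Tdo2, an enzyme of tryptophan breakdown in mature granule neurons, at 0.66 with an adjusted p of 0.0141 by edgeR. With the mean of these dentate genes as a covariate, the gonad differences were 0.15 for Dcx, -0.06 for Sox4, 0.08 for Dpysl3 and -0.02 for Neurod1, against 0.07, 0.05, 0.03 and -0.04 without it. Those of Nes, Sox11 and Sox2 were 0.14, -0.14 and -0.06, against 0.16, -0.14 and -0.05. For the sex chromosome effect the same covariate gave 0.10 for Dcx, -0.10 for Sox4, -0.04 for Dpysl3 and 0.01 for Nes, against 0.04, -0.01, -0.09 and 0.03, and 0 of the 7 genes passed in any of these fits. Genes of choroid plexus and ependyma had medians of 0.71 and 0.38 for the gonad effect, with 10 of 10 and 7 of 7 above 0. An unadjusted p under 0.05 by edgeR was reached by 0 and 2 of them (13.6% of all genes). Within XX mice their medians were 1.66 and 0.56, with 10 of 10 and 7 of 7 above 0. Within XY mice they were -0.22 and 0.13, with 0 of 10 and 4 of 7 above 0. Genes of 1 list share their tissue, so these counts are not independent. With the choroid plexus genes as a covariate 0 of the 7 genes passed, and their gonad differences ran from -0.12 for Sox11 to 0.15 for Nes; the part of ependyma was not tested. For the other cell types with marker lists (CA neurons, choroid plexus, ependyma, astrocytes, oligodendrocyte precursors, endothelial and mural cells, subventricular zone and striatum, and microglia), 0 list genes were called by edgeR for either effect.

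Over the 23 animals the genes differed in how widely they ranged. Dcx spanned 15.6 to 30.4 CPM, a ratio of 1.95, Sox11 a ratio of 1.97, Nes 1.94, Neurod1 2.03, Sox4 1.68, Sox2 1.54 and Dpysl3 1.34. The ratio of Neurod1 was 1.59 without XYF replicate 4, and its SD over all libraries went from 3.13 to 1.96 CPM. The SD within groups on the log2 scale was 0.26 for Nes and 0.26 for Dcx, larger than in 91% and 93.8% of the genes within 0.5 log2 CPM of the same level. For Sox11 it was 0.24 (79.2% of such genes lay below). For Neurod1 it was 0.21 (82.5%), and 0.16 (47.1%) without XYF replicate 4. Sox4 and Sox2, at 0.22 and 0.14, lay near the middle (53.2% each), and Dpysl3, at 0.10, was steadier than most (6.8%).

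No pair of the 7 genes passed a test of moving together from animal to animal. Over 21 pairs, Pearson's r of log2 CPM over 23 libraries ran from -0.33 to 0.50, and 0 pairs passed after adjustment over the 21. Sox2 and Nes had an r of 0.474 (permutation p = 0.0215, adjusted p = 0.226) and a Spearman rho of 0.527 (permutation p = 0.0109, adjusted p = 0.229). Without the 2 libraries farthest from the median of Sox2, XYM replicates 1 and 2, r was 0.658, and after subtracting group means it was 0.647. Sox2 and Dpysl3 had an r of 0.498 (permutation p = 0.0152, adjusted p = 0.226) and a rho of 0.365 (permutation p = 0.0878, adjusted p = 0.48), with an r of 0.405 without those 2 libraries. Dcx, by contrast, had an r of 0.218 with Sox11 (permutation p = 0.316, adjusted p = 0.753) and a rho of 0.139 (permutation p = 0.527, adjusted p = 0.756), and its r fell to 0.02 without the 2 libraries farthest from the median of Dcx. Between Dcx and Neurod1 r was 0.337 (permutation p = 0.117, adjusted p = 0.521) and rho 0.324 (permutation p = 0.132, adjusted p = 0.48), and r was 0.215 without the 2 farthest. Without XYF replicate 4 that r was 0.288. The r of Neurod1 then went from -0.332 to -0.146 with Sox4 and from -0.144 to -0.352 with Sox2, and no p was computed without that library.

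The genes were also set against the mean log2 CPM of marker lists and the library total, in 42 relations, of which 0 passed after adjustment. Choroid plexus genes split the libraries into separate clusters, so no r is given for them, and the ranges of all 7 genes overlapped between the 7 libraries with high and the 16 with low choroid plexus levels. The strongest of the others was Sox2 with the oligodendrocyte precursor list, with an r of 0.626 (permutation p = 0.00164, adjusted p = 0.0689) and a rho of 0.575 (permutation p = 0.00487, adjusted p = 0.2). That r was 0.509 without the 2 libraries farthest from the list's median and 0.613 after subtracting group means. Dpysl3 had an r of 0.552 with the same list (permutation p = 0.00661, adjusted p = 0.105) and a rho of 0.535 (permutation p = 0.00954, adjusted p = 0.2), and r was 0.584 without the 2 farthest. Dcx had an r of -0.537 with the astrocyte list (permutation p = 0.00753, adjusted p = 0.105) and a rho of -0.504 (permutation p = 0.015, adjusted p = 0.21), and r was -0.463 without the 2 farthest. Nes had an r of -0.076 with the endothelial and mural list (permutation p = 0.729, adjusted p = 0.978) and a rho of -0.114 (permutation p = 0.604, adjusted p = 0.939). Neurod1 had an r of 0.03 with the dentate granule list (permutation p = 0.888, adjusted p = 0.981). Without XYF replicate 4 that r was 0.402, for which no p was computed.

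For each gene the 3 records of the whole table with the most similar pattern were taken, by Pearson's r of log2 CPM over the 23 libraries. They are given as a description with no test, since the highest of so many values is high by selection and all points share their library. For Nes the first was Sox2ot, the long non-coding RNA in whose span Sox2 lies, with an r of 0.837, and 0.873 after subtracting group means. For Dcx they were Nek1 (0.876), Krit1 (0.827) and the splicing factor gene Sfpq (0.824), and all 3 were lowest in XYF replicate 6, the library with the lowest Dcx. For Sox4 the first were Inf2 (0.883) and Igsf3 (0.795), and for Sox11 they were Rdh13 (0.768), 1700021K19Rik (0.754) and Lin37 (0.737). For Sox2 they were Tsfm (0.725), Pcsk1n (0.705) and Hist2h2aa2 (0.694), all lowest in XYM replicate 2, and for Dpysl3 Adamts15 (0.725), Stox1 (0.686) and Zfp385b (0.683). For Neurod1 they were the photoreceptor gene Gucy2f (0.836), Rnd3 (0.757) and Prkab1 (0.749), all highest in XYF replicate 4, and without that library their r was 0.623, 0.652 and 0.402. None of the 7 genes was among the closest 3 of another.

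**Figure D4:**
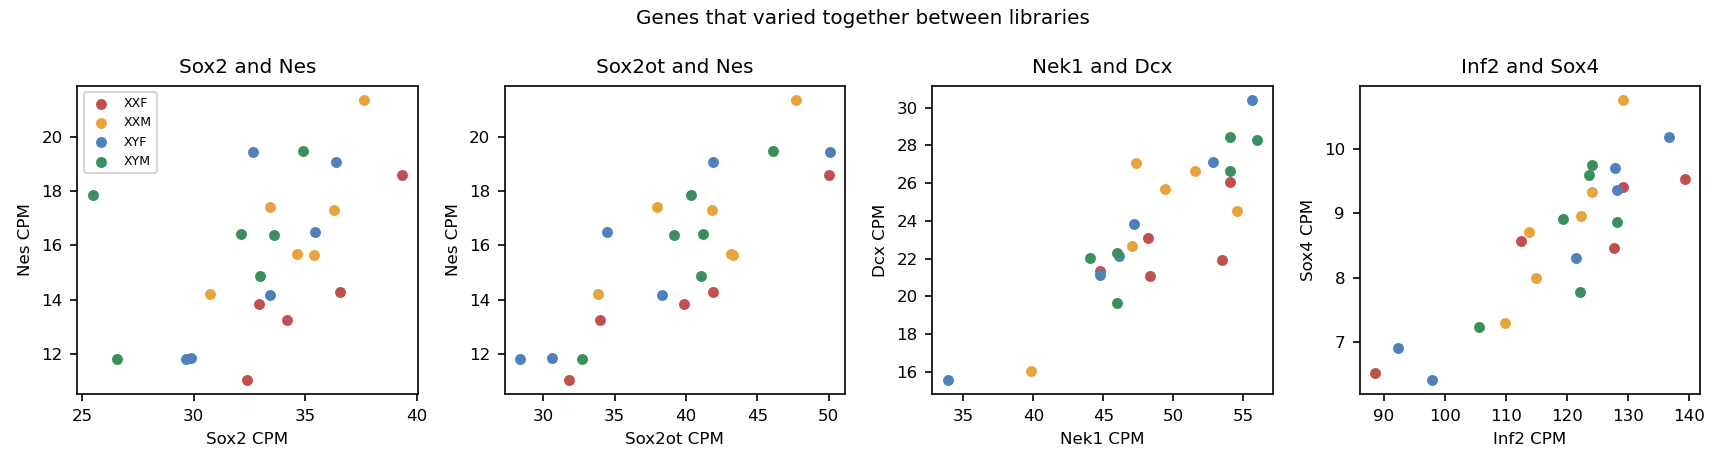
Level in CPM of 1 gene (x axis) against another (y axis) in each of 23 libraries, coloured by group: Sox2 and Nes (r = 0.474 on log2 values), and the nearest patterns to Nes, Dcx and Sox4, which were Sox2ot (0.837), Nek1 (0.876) and Inf2 (0.883). The colours of the 4 groups mix along each cloud, and XYF replicate 6 is the lowest point in the panel of Nek1 and Dcx.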

How the data were processed

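RNA of 23 hippocampi, each from 1 mouse, was made into ribosomal RNA-depleted, strand-specific libraries, per the labels' protocols. The authors deposited 1 table that holds estimated counts (raw values per the file headers) and log2 values that equal the log2 count with 1 shift per library, less 1 baseline per gene, to within 1.59e-06 over genes with no 0. Per the file headers, the authors kept a gene if all (100%) libraries of some group had 20 or more. The submitters' processing notes name mm10 and DESeq. No aligner, counter or strand setting is given in the sources used here. Replicate numbers follow accession order and only name libraries.

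Estimated counts were rounded, scaled by TMM factors and fitted for 13766 genes with edgeR (version 4.0.16, R 4.3.3), a mean for each of 4 groups and 1 shared spread. filterByExpr removed 0 genes. Standard errors are the absolute log2 fold change over the root of F, and intervals (95%) use them. Log2 CPM used a prior count of 2, and permutation tests 100000 resamples, 2-sided. The alternatives used RLE factors, totals alone, other filters, DESeq2 (version 1.42.0), limma (version 3.58.1), covariates and each library left out. The steps were tested on simulated data. Sequences and exon lengths are from GENCODE M21 (GRCm38). The members and lists were chosen with earlier results of these data known. Named were the 7 members, list genes called in any contrast or among the 2 smallest p per list and main effect, marker genes called, the first gene of marker lists where a value is used, and the 3 most similar patterns per member, of which 1 is not reported here; Mki67, Xist, Cerkl and the photoreceptor genes were added after their values were seen. Of list genes, 6 of cycling cells and intermediate progenitors were not analysed here, Eomes, Neurog2 and Tfap2c among them. Nor were 2 of immature neurons, 3 of niche signals, 2 of choroid plexus and 2 of ependyma. The same holds for 14 of 21 photoreceptor genes and all of 8 pineal genes.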

Additional observations from a re-analysis of the deposited data

How the results depend on the processing

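In all 9 contrasts, each of the 33 or 34 alternatives called 0 of the 7 genes. These were RLE factors, library totals alone, no further filter, a mean count of at least 100, DESeq2, limma voom with and without sample quality weights, limma on the deposited log2 values, a dentate or choroid plexus covariate, only the 2 groups compared, and each library left out. Over 2121 values the smallest adjusted p was 0.215, and the sign differed from that reported in 107, none larger than 0.16 in size; the cause was not tested. Of all genes, the number called for the sex chromosome effect ran from 33 to 68 (39 reported), the highest with sample quality weights. For the gonad effect it ran from 8 with the dentate covariate to 98 with DESeq2 (22 reported), and was 85 without XXF replicate 5. The interaction reached 3 without XYM replicate 1, and XXM against XXF reached 1 with DESeq2 (0 reported for both). XYM against XYF ran from 15 to 50 (31 reported), XYM against XXF from 11 to 123 (18), XXM against XYF from 42 to 103 (69), XYF against XXF from 31 to 58 (40) and XYM against XXM from 15 to 22 (16). In the lists of other neurogenesis genes, 1 alternative called 1 gene, Fabp7. No paired analysis was possible because the labels give each animal its own number and no shared replicate numbers. Depth limits Sox4 most, at a lowest count of 82.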
